A study of Mus musculus with 14 samples.

Results

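The Cyp4a genes encode cytochrome P450 enzymes of the endoplasmic reticulum that add a hydroxyl group to the last (omega) carbon of fatty acids. They were chosen by name: Cyp4a10, Cyp4a12a, Cyp4a12b, Cyp4a14, Cyp4a31 and Cyp4a32, which are 6 of the 25212 genes in the count table. All 6 passed the filter on low counts and are among the 14252 genes tested. The livers came from male C57BL/6 mice made obese on a high-fat diet (HFD), which they kept eating, and each liver gave 1 RNA-seq library. DIO (diet-induced obesity) mice had no operation (n = 5). In GB-IL mice the gallbladder was joined to the ileum and the common bile duct was tied, so that bile entered the distal small intestine (n = 4). RYGB mice had a Roux-en-Y gastric bypass (n = 5). The labels give 8 weeks after the operation, or after no operation, for all 14 livers. No sham-operated or lean liver is among them, so effects of an operation as such cannot be told apart from effects of the bile diversion or the bypass.

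Omega-hydroxylation is the first step of a side route of fatty acid breakdown. The omega-alcohol is turned by alcohol and aldehyde dehydrogenases into a dicarboxylic acid, which is shortened by beta-oxidation in peroxisomes. The same enzymes act on arachidonic acid, and Cyp4a12a is the main mouse enzyme that forms 20-hydroxyeicosatetraenoic acid from it. Cyp4a10 and Cyp4a14 are classical targets of PPARα, the fatty acid-activated nuclear receptor of the liver. Cyp4a12a is higher in livers and kidneys of male mice than of females and depends on androgen and on the male pattern of growth hormone release.

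The members lie side by side on chromosome 4, within 322.557 kb (GRCm38, chr4:115299046-115621602). In the GENCODE M21 annotation of that span 13 genes are listed, of which 6 are the members, 6 are pseudogenes and 1 is another protein-coding gene, Cyp4a30b. From the left the order is Cyp4a12a (ENSMUSG00000066071, 115299046 to 115332815), Cyp4a12b (ENSMUSG00000078597, 115411624 to 115439034), Cyp4a14 (ENSMUSG00000028715, 115486200 to 115496142), Cyp4a10 (ENSMUSG00000066072, 115518264 to 115533649), Cyp4a31 (ENSMUSG00000028712, 115563649 to 115579015) and Cyp4a32 (ENSMUSG00000063929, 115600969 to 115621602). Cyp4a14 is on the minus strand and the other 5 are on the plus strand.

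The coding sequences fell into 3 sets by identity. Cyp4a12a and Cyp4a12b were 98.5% identical, differing at 23 of 1524 bases. Cyp4a10, Cyp4a31 and Cyp4a32, each with 1527 coding bases, were 96.0% to 97.2% identical to each other. Between this trio and the Cyp4a12 pair identity was 79.6% to 80.2%, and Cyp4a14 was 75.1% to 75.9% identical to the others. The stretch that encodes the loop around the cysteine that holds the haem iron is shown because it is the catalytic signature of the family and separates the same 3 sets. It covers 69 coding bases in exons 11 and 12, and the positions are its outer bounds, with the intron between them. Capitals mark bases that differ from Cyp4a10.
Cyp4a10 (chr4:115529490-115532570, plus strand): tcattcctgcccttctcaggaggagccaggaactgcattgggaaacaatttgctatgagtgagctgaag
Cyp4a31 (chr4:115574938-115577975, plus strand): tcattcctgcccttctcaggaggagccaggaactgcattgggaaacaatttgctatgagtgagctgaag
Cyp4a32 (chr4:115614868-115621473, plus strand): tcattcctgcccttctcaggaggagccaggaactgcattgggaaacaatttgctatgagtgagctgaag
Cyp4a12a (chr4:115328974-115331873, plus strand): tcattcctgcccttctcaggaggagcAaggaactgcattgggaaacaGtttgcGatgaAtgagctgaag
Cyp4a12b (chr4:115435228-115438096, plus strand): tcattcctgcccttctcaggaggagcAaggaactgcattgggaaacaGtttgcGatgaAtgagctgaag
Cyp4a14 (chr4:115487272-115489817, minus strand): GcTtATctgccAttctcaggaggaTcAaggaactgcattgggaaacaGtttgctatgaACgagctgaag
Over this stretch Cyp4a31 and Cyp4a32 had 0 differences from Cyp4a10, the Cyp4a12 genes shared the same 4, and Cyp4a14 had 10.

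Reads can be assigned to 1 member only where members differ. The next stretches, each 69 bases within 1 exon, hold the most differences found in a window of that length within the Cyp4a12 pair and within the Cyp4a10 trio. Capitals mark differences from the first sequence of each set. For the pair the stretch is in exon 6.
Cyp4a12a (chr4:115326680-115326748, plus strand): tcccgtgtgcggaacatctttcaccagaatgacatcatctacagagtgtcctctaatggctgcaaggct
Cyp4a12b (chr4:115432933-115433001, plus strand): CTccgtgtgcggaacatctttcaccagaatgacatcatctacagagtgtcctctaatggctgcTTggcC
For the trio it is in exon 2.
Cyp4a10 (chr4:115519633-115519701, plus strand): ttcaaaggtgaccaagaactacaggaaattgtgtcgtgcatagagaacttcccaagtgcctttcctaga
Cyp4a31 (chr4:115565013-115565081, plus strand): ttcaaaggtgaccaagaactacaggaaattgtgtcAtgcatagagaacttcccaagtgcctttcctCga
Cyp4a32 (chr4:115602263-115602331, plus strand): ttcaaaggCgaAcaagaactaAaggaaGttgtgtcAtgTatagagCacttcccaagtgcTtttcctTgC
Even here Cyp4a12b differed from Cyp4a12a at 5 bases, Cyp4a31 from Cyp4a10 at 2 and Cyp4a32 from Cyp4a10 at 10.

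Cut into windows of 50 bases, 48.9% of the annotated Cyp4a12a sequence and 49.4% of that of Cyp4a12b also occurred in another member. The share was 43.8% for Cyp4a32, 29.8% for Cyp4a10 and 19.0% for Cyp4a31. None of the Cyp4a14 windows occurred in another member, so its counts are free of this limit. How the authors' counting treated reads that fit more than 1 member is a point not given in the sources used here. Counts of the pair and of the trio are therefore uncertain in how they were divided. Values are given for the summed rows beside some of the results this touches.

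**Figure D1:**
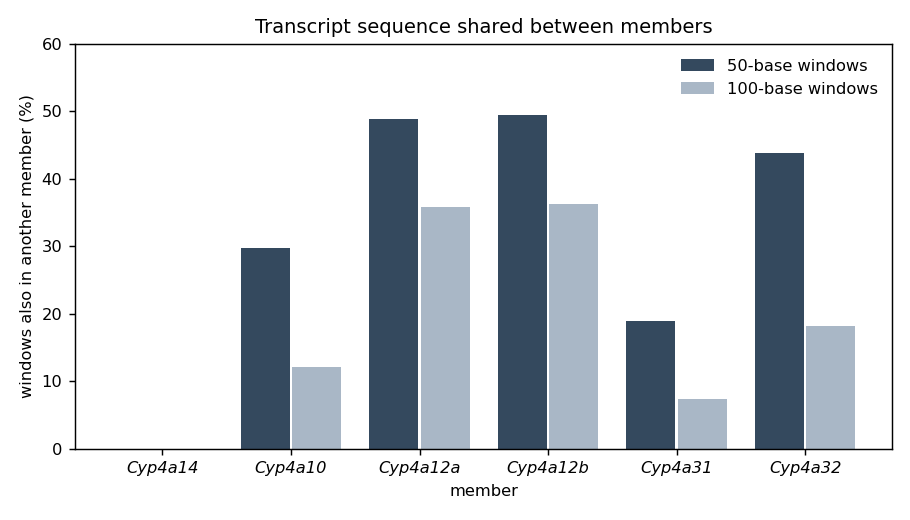
Share of the windows of each member's annotated transcripts that also occur, letter for letter, in a transcript of another member, in percent. Dark bars stand for windows of 50 bases and light bars for windows of 100 bases; the Cyp4a12 pair shared the most (48.9% and 49.4% at 50 bases) and Cyp4a14 shared 0.

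The libraries held 18223135 to 28656631 counts. On the first principal component of all genes tested (48.5% of the variance) GB-IL livers 1 and 2 stood far from the rest, at -134 and -106. GB-IL liver 3 lay at -20.1, and GB-IL liver 4 at 35.3, among the DIO livers, which lay between 21.9 and 45.7. Whether bile was diverted in GB-IL liver 4 as labelled was not tested, so the GB-IL means and fold changes rest on its label. The summed level of the 8 hepatocyte markers was 86166 to 122704 CPM in GB-IL, 123113 to 141818 CPM in DIO and 120792 to 152420 CPM in RYGB. CPM is the count relative to the library total, here without TMM scaling. GB-IL livers 1 to 3 had 99367, 111773 and 86166 CPM of these markers, below every DIO and RYGB liver. GB-IL liver 4, at 122704 CPM, was only just below the lowest DIO liver. The sums therefore do not firmly separate GB-IL as a group from DIO. None of the 8 markers was at 0 in any liver. Macrophage markers (7 measured, none at 0) summed to 891 to 1104 CPM in GB-IL livers 1 to 3, to 395 CPM in GB-IL liver 4 and to 245 to 390 CPM in DIO. Cholangiocyte markers (6 measured) summed to 205 to 297 CPM in GB-IL livers 1 to 3, to 60.2 CPM in GB-IL liver 4 and to 32.2 to 64.5 CPM in DIO. GB-IL liver 1 also held 1047 CPM of the 5 skeletal muscle markers and 421 CPM of the 4 exocrine pancreas markers. In bulk tissue, fewer cells of a type and less RNA per cell cannot be told apart, and the part of these markers in the results below was not tested. The counts fitted the stated sex in all 14 livers, with 0 to 7 counts for Xist and 1488 to 4301 for 4 Y-linked genes together.

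Cyp4a14 and Cyp4a10 made up most of the family's expression. Levels are compared between genes as RPKM, the CPM divided by the length of the annotated exons in kb. Over the 14 livers the mean RPKM was 305 ± 231 (SD) for Cyp4a14 and 155 ± 110 (SD) for Cyp4a10. It was 13.04 ± 7.73 for Cyp4a32, 12.5 ± 9.87 for Cyp4a12a, 5.65 ± 4.49 for Cyp4a31 and 3.72 ± 5.49 for Cyp4a12b (SD, n = 14 livers each). Cyp4a14 was above Cyp4a10 in 13 of 14 livers, the exception being RYGB liver 4, and Cyp4a10 was above Cyp4a32 in 14 of 14. The next neighbours were not separated beyond their spread: Cyp4a32 was above Cyp4a12a in 8 of 14 livers and Cyp4a31 above Cyp4a12b in 9 of 14. In DIO livers alone Cyp4a12a, at 17.4 ± 5.10 RPKM (SD, n = 5), was above Cyp4a32, at 13.97 ± 4.10 RPKM (SD, n = 5), in all 5 livers.

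In the DIO livers the family summed to 1276 ± 177 CPM (SD, n = 5), with a narrow range from 1057 to 1543 CPM. In the GB-IL livers the sum was 906, 234, 113 and 1738 CPM in livers 1 to 4. The RYGB livers had 3309, 723, 946, 434 and 1942 CPM in livers 1 to 5. Both operated groups thus held livers below and above every DIO liver. Cyp4a14 and Cyp4a10 together took 92.0% to 95.5% of the family's CPM in DIO livers, 82.2% to 95.8% in GB-IL and 70.7% to 98.3% in RYGB.

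Cyp4a14, the member with the highest level, was the most even in DIO. Its levels there were 765, 799, 824, 803 and 952 CPM in livers 1 to 5, a coefficient of variation of 8.69%. In GB-IL they were 640.2, 171, 56.7 and 1168 CPM in livers 1 to 4, a coefficient of variation of 99.5%. In RYGB they were 2294, 437, 458, 140.2 and 1609.9 CPM in livers 1 to 5, a coefficient of variation of 93.3%. In GB-IL, livers 1 to 3 lay below every DIO liver and liver 4 above all of them, while 2 RYGB livers lay above every DIO liver and 3 below. The groups overlapped.

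Cyp4a10 followed Cyp4a14 in most livers. Its levels were 237, 307, 393, 400.4 and 515 CPM in DIO livers 1 to 5. In GB-IL livers 1 to 4 they were 225, 41.7, 36.2 and 496 CPM, and in RYGB livers 1 to 5 they were 959, 225, 310.3, 167 and 265 CPM. Livers 1 to 3 of GB-IL were below every DIO liver, GB-IL liver 4 was within the DIO range, and RYGB liver 1 was above all others. The ratio of Cyp4a14 to Cyp4a10 in CPM ran from 1.85 to 3.22 in DIO livers and from 0.842 to 6.08 in RYGB livers.

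Cyp4a12a was the member with the widest gap between GB-IL livers 1 and 2 and the DIO livers. The DIO livers had 28.1, 53.9, 33.0, 55.7 and 39.9 CPM. In GB-IL livers 1 to 4 they were 0.365, 0.508, 4.24 and 35.7 CPM, the lowest 2 resting on 7 and 9 counts. In RYGB livers 1 to 5 the levels were 6.50, 23.8, 74.7, 56.8 and 11.7 CPM. The first 3 GB-IL livers were below every DIO liver and below every RYGB liver, and GB-IL liver 4 was within both ranges. RYGB livers 1, 2 and 5 lay below every DIO liver, with livers 1 and 5 the lowest of their group. RYGB livers 3 and 4 lay above every DIO liver.

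Cyp4a12b, the near-copy of Cyp4a12a, was at a low level in most livers. It had 1.88, 1.57, 0.610, 17.9 and 9.08 CPM in DIO livers 1 to 5 and 0.469, 0.113, 0.508 and 2.99 CPM in GB-IL livers 1 to 4. In RYGB livers 1 to 5 it had 2.02, 10.4, 47.7, 22.2 and 7.09 CPM. In GB-IL livers 1 to 3 its level rests on 9, 2 and 12 counts, and in DIO liver 3 on 12 counts. Again livers 1 to 3 of GB-IL lay below every DIO and RYGB liver, and RYGB livers 3 and 4 lay above every DIO liver. At these counts the order of GB-IL livers 1 and 3 against DIO liver 3 is not firm.

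The share of Cyp4a12b in the counts of the pair was not constant. In DIO it was lowest in liver 3, with 1.82% (12 of 660 counts, 95% Wilson interval 1.04% to 3.15%), and highest in liver 4, with 24.3% (317 of 1302, 22.1% to 26.8%). In RYGB it ran from 23.7% in liver 1 (37 of 156, 17.7% to 31.0%) to 39.0% in liver 3 (1357 of 3479, 37.4% to 40.6%). GB-IL liver 4 had 7.72% (81 of 1049, 6.26% to 9.50%), and GB-IL livers 1 and 2 had too few counts of the pair, 16 and 11, to place the share. The intervals cover counting error only, since amplified reads without molecular identifiers are not independent molecules. Within DIO the intervals of liver 3 and liver 4 did not overlap, so the division differed between livers of 1 group by more than counting error.

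**Figure D2:**
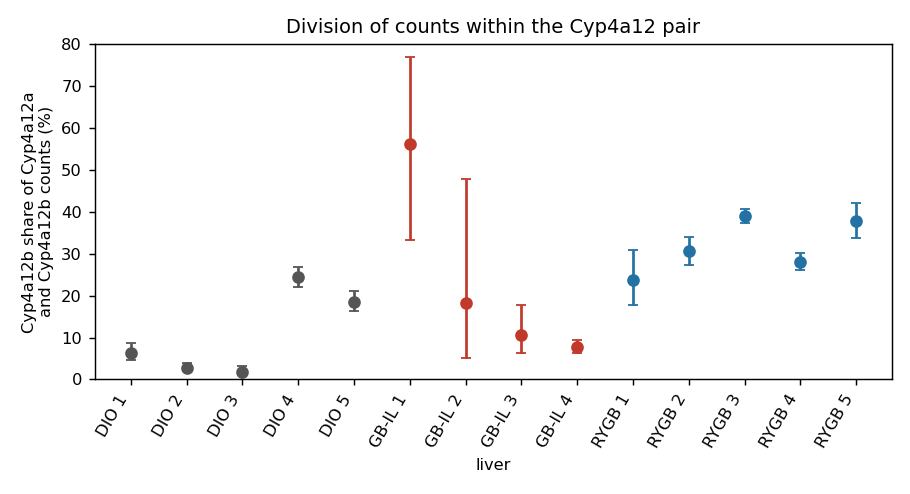
Cyp4a12b counts as a percentage of the counts of Cyp4a12a and Cyp4a12b together, 1 point per liver with its 95% Wilson interval, grey for DIO, red for GB-IL and blue for RYGB. DIO livers 1 to 3 lay at 1.82% to 6.28%, DIO livers 4 and 5 at 24.3% and 18.5%, and the 5 RYGB livers at 23.7% to 39.0%.

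Cyp4a31 was the only member whose fitted level was higher in both operated groups than in DIO. The DIO livers had 8.84, 7.87, 4.73, 5.71 and 7.11 CPM. The GB-IL livers 1 to 4 had 33.9, 18.3, 3.81 and 11.1 CPM, and RYGB livers 1 to 5 had 31.1, 10.3, 11.1, 8.23 and 36.6 CPM. Of the 4 GB-IL livers 3 were above every DIO liver and 1 was below, and 4 of 5 RYGB livers were above every DIO liver. The ratio of Cyp4a10 to Cyp4a31 in CPM was 26.9 to 83.0 in DIO and 7.24 to 30.8 in RYGB. In GB-IL livers 1 to 4 it was 6.64, 2.28, 9.50 and 44.7, the first 3 below every DIO liver and liver 4 within the DIO range.

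Cyp4a32 moved much as Cyp4a12a did. It had 15.9, 32.3, 19.0, 20.3 and 19.7 CPM in DIO livers 1 to 5 and 6.51, 2.31, 11.6 and 24.0 CPM in GB-IL livers 1 to 4. In RYGB livers 1 to 5 it had 16.2, 16.6, 44.5, 39.6 and 11.8 CPM. For this gene too, GB-IL livers 1 to 3 were below every DIO liver, and RYGB livers 3 and 4 were above every DIO liver.

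**Figure D3:**
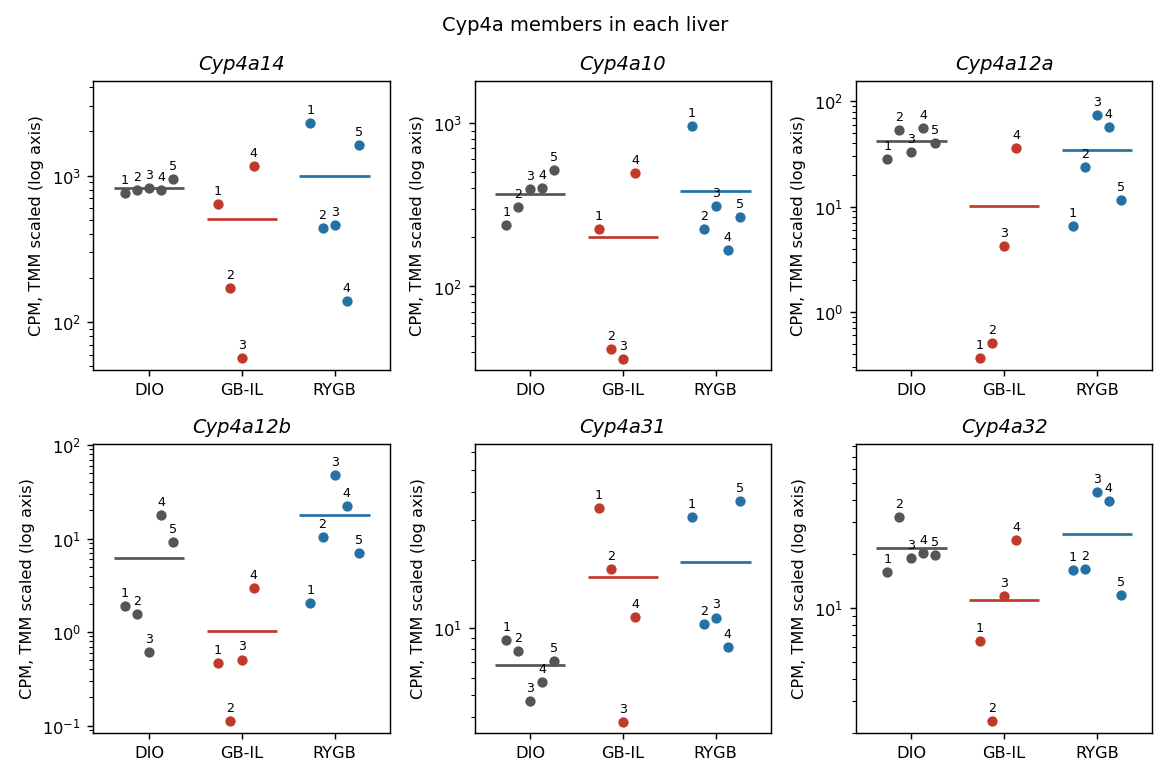
Level of each member in each liver, in CPM scaled by TMM on a log axis, with the liver's replicate number above each point and the group mean as a line. GB-IL livers 1 to 3 lay below every DIO liver for Cyp4a14, Cyp4a10, Cyp4a12a, Cyp4a12b and Cyp4a32, whereas for Cyp4a31 GB-IL livers 1, 2 and 4 lay above every DIO liver. For Cyp4a12b GB-IL liver 3 and DIO liver 3 both rest on 12 counts, so their order is not firm.

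The members fell into groups that followed their sequence only in part. The uncertain division of counts within the pair and the trio also enters these values. Pearson's r of log2 CPM over the 14 livers, which share their library and its depth, is given as a description. It was 0.90 between Cyp4a12a and Cyp4a32, 0.88 between Cyp4a10 and Cyp4a14 and 0.74 between Cyp4a12a and Cyp4a12b. With group means removed these were 0.87, 0.86 and 0.69. Cyp4a12a and Cyp4a14 had an r of 0.23, and Cyp4a31 ran opposite to Cyp4a12a with -0.54 (-0.64 with group means removed). Cyp4a32 thus varied with Cyp4a12a more than with Cyp4a10 (r = 0.54), although its coding sequence is 97.2% identical to Cyp4a10 and 79.7% identical to Cyp4a12a.

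The first comparison asked how bile diversion to the ileum was associated with hepatic expression of the members. In GB-IL compared with DIO 5 of the 6 had a negative log2 fold change and Cyp4a31 a positive one, but by the quasi-likelihood test of edgeR none passed a false discovery rate (FDR) of 0.05. Over all genes tested 3.26% were called, 449 of them higher and 16 lower. At an unadjusted p under 0.05 there were 2 members, Cyp4a12b and Cyp4a31, against 23.1% of all genes. No member had groups without overlap, against 4.17% of all genes. The median log2 fold change was -0.91 over the 6 members and 0.04 over all genes tested, of which 46.9% were negative.

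The mean of Cyp4a12b was 1.02 ± 1.32 CPM (SD, n = 4) after GB-IL against 6.21 ± 7.37 CPM (SD, n = 5) in DIO, a log2 fold change of -2.54 (SE 1.10, adjusted p = 0.187). Cyp4a12a had 10.2 ± 17.1 and 42.1 ± 12.3 CPM, a log2 fold change of -2.03 (SE 1.02, adjusted p = 0.243). With the rows of the pair summed, the means were 11.2 ± 18.4 CPM after GB-IL and 48.3 ± 17.7 CPM in DIO. For Cyp4a32 the log2 fold change was -0.94 (SE 0.535, adjusted p = 0.292), for Cyp4a10 -0.89 (SE 0.688, adjusted p = 0.423) and for Cyp4a14 -0.70 (SE 0.774, adjusted p = 0.576). None of these differences passed the FDR. For each of these members GB-IL livers 1 to 3 lay below every DIO liver, while liver 4 lay within or above the DIO range. For Cyp4a12b the order against DIO liver 3 rests on 12 counts or fewer in each of these livers and is not firm. Voom with sample quality weights, which gives livers that stand apart less weight, called Cyp4a10 lower (-2.54, adjusted p = 0.0340), and called 4.13% of all genes in this comparison. Cyp4a31 had 16.8 ± 12.8 CPM after GB-IL and 6.85 ± 1.65 CPM in DIO, a log2 difference of 1.29 (SE 0.541, adjusted p = 0.175), which was 0.69 (adjusted p = 0.552) without GB-IL liver 1. With the rows of Cyp4a10, Cyp4a31 and Cyp4a32 summed, the log2 fold change was -0.81 (adjusted p = 0.419), since Cyp4a10 supplies most of that sum.

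These calls depended on GB-IL liver 4. Without it 3 members were lower in GB-IL than in DIO at the FDR, while 24.6% of all genes were called, 9.27% of all genes in that direction. The log2 fold change was then -4.58 for Cyp4a12a (SE 0.938, adjusted p = 0.00498), -4.04 for Cyp4a12b (SE 1.31, adjusted p = 0.0379) and -1.65 for Cyp4a32 (SE 0.522, adjusted p = 0.0349). Summed over the pair, GB-IL livers 1 to 3 had 0.833, 0.621 and 4.75 CPM, and the DIO livers had 30.0 to 73.6 CPM. Cyp4a10 missed the threshold, with -1.88 (SE 0.673, adjusted p = 0.0550), as did Cyp4a14 with -1.52 (SE 0.814, adjusted p = 0.175) and Cyp4a31 with 1.44 (SE 0.577, adjusted p = 0.0801). The liver was not set aside by the labels, so the values with all 14 livers remain the main ones.

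The second comparison asked the same of RYGB. In RYGB compared with DIO none of the members and 0% of all genes were called at the FDR, and the median log2 fold change was 0.26 over the members and 0.01 over all genes. At an unadjusted p under 0.05 there was 1 member, Cyp4a31, against 8.71% of all genes, and no member had groups without overlap, against 3.53%. Cyp4a31 had 19.5 ± 13.3 CPM (SD, n = 5) in RYGB, a log2 fold change of 1.51 (SE 0.520, adjusted p = 0.468, 95% interval 0.49 to 2.52), which was 0.11 (adjusted p = 0.970) with the rows of the trio summed. For Cyp4a12b it was 1.53 (SE 0.933, adjusted p = 0.670). Cyp4a14 and Cyp4a10, at 0.25 (95% interval -1.16 to 1.67) and 0.06 (-1.19 to 1.30), turned negative without RYGB liver 1, with -0.32 and -0.62. Cyp4a12a at -0.28 (-2.04 to 1.49) and Cyp4a32 at 0.26 (-0.70 to 1.23) also had intervals on both sides of 0. These intervals leave room for changes of more than a log2 unit, so equal levels were not shown. They use a normal quantile on the SE, so they are narrower than intervals from the quasi-likelihood test itself would be.

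The direct comparison of the operations gave the lowest p of any member. In GB-IL compared with RYGB all 6 members had a negative log2 fold change, with none called at the FDR against 0% of all genes. At an unadjusted p under 0.05 there were 2 members, Cyp4a12b and Cyp4a32, against 22.1% of all genes, and no member had groups without overlap, against 2.85%. The median log2 fold change was -1.08 over the members and 0.03 over all genes, of which 47.5% were negative. Cyp4a12b had 17.9 ± 18.3 CPM (SD, n = 5) in RYGB and was 16.8-fold lower after GB-IL, with a log2 difference of -4.07 (SE 1.16, adjusted p = 0.103). DESeq2 (adjusted p = 0.00876) and edgeR's exact test (adjusted p = 0.0184) called it, where they called 5.96% and 4.76% of all genes. These values rest on the uncertain division of counts within the pair. With the pair summed, the means were 11.2 ± 18.4 CPM (SD) after GB-IL and 52.6 ± 47.4 CPM (SD) in RYGB. The relative difference of these sums was smaller than that of Cyp4a12b alone. Cyp4a32 had -1.20 (SE 0.539, adjusted p = 0.211), Cyp4a12a -1.75 (SE 1.01, adjusted p = 0.306), Cyp4a14 -0.95 (SE 0.780, adjusted p = 0.457), Cyp4a10 -0.94 (SE 0.689, adjusted p = 0.407) and Cyp4a31 -0.21 (SE 0.537, adjusted p = 0.825). Without GB-IL liver 4, 3 members were lower at the FDR, namely Cyp4a12b (-5.57, adjusted p = 0.0155), Cyp4a12a (-4.30, adjusted p = 0.00973) and Cyp4a32 (-1.91, adjusted p = 0.0238), while 21.5% of all genes were called, 8.09% of all genes in that direction. The comparisons share their groups and are not independent of each other.

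**Figure D4:**
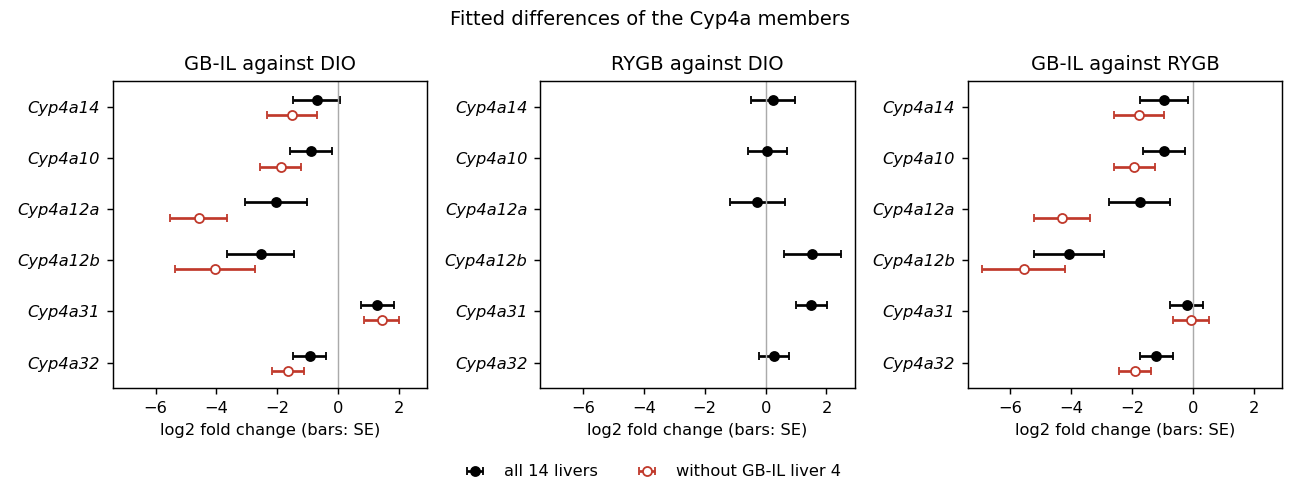
Fitted log2 fold change of each member in the 3 comparisons, with bars of 1 SE, filled for all 14 livers and open for the fit without GB-IL liver 4 (drawn for the GB-IL comparisons). In GB-IL against DIO the open points of Cyp4a12a and Cyp4a12b lay at -4.58 and -4.04, further from 0 than the filled points at -2.03 and -2.54.

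Most genes of the route downstream of the members had a negative log2 fold change in GB-IL compared with DIO, and none passed the FDR. Of 22 peroxisomal fatty acid oxidation genes tested all 22 were negative, with a median of -0.65, where 46.9% of all genes were negative. The smallest p-values were those of Acot8, a peroxisomal acyl-CoA thioesterase (-0.60, adjusted p = 0.105), and Hsd17b4, the bifunctional enzyme of peroxisomal beta-oxidation (-0.90, adjusted p = 0.133). Without GB-IL liver 4, 14 of the 22 were lower at the FDR, among them Ehhadh (-2.18, adjusted p = 0.000568), the other bifunctional enzyme. Of all genes 9.27% were called lower in that fit. Of 8 alcohol and aldehyde dehydrogenases 7 were negative, against 46.9% of all genes, and none was called. The smallest p-values were those of Aldh3b1 (1.29, adjusted p = 0.0961) and Adh7 (-0.72, adjusted p = 0.118). Without GB-IL liver 4 Aldh3a2 (-2.82, adjusted p = 8.46e-05) and Aldh9a1 (-1.42, adjusted p = 0.0080) were lower at the FDR. Aldh3b1 was higher in that fit (1.56, adjusted p = 0.0109).

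PPARα targets outside peroxisomes and partners of the receptor were read next. Of 25 targets outside peroxisomes 21 were negative in GB-IL compared with DIO, against 46.9% of all genes. Their median was -0.54 and none was called. Acot1, a cytosolic acyl-CoA thioesterase (-1.92, adjusted p = 0.0580), and Acaa2, the mitochondrial thiolase (-0.97, adjusted p = 0.0586), came closest. Ppara itself was at 61.3, 163, 58.7, 61.6 and 106 CPM in DIO livers 1 to 5 and at 28.4, 11.9, 31.9 and 112 CPM in GB-IL livers 1 to 4. GB-IL livers 1 to 3 were thus below every DIO liver for Ppara as for 5 of the members, and the fold change was -0.96 (SE 0.543, adjusted p = 0.287), or -1.91 (adjusted p = 0.0117) without GB-IL liver 4. Of the 17 receptors and partners 12 were negative and 5 positive, with a median of -0.13, none was called, and the smallest p-values were those of Rxrg (-1.22, adjusted p = 0.110) and Ppargc1a (1.08, adjusted p = 0.135). Without GB-IL liver 4, 16 of the 25 targets were lower at the FDR, against 9.27% of all genes.

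Por, the reductase that passes electrons to all microsomal P450 enzymes, ran the other way. It was at 1919, 1402, 694 and 284 CPM in GB-IL livers 1 to 4, at 169 to 968 CPM in DIO and at 162 to 569.8 CPM in RYGB. The log2 fold change was 0.85 against DIO (SE 0.576, adjusted p = 0.363) and 1.83 against RYGB (SE 0.583, adjusted p = 0.119). Of the 3 electron donors tested none was called, Cyb5r3 (-0.47, adjusted p = 0.271) and Cyb5b (-0.73, adjusted p = 0.299) having the smallest p-values against DIO.

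Other branches of P450 fatty acid metabolism were measured for comparison. Of 10 other Cyp4 genes tested 5 were negative and 5 positive in GB-IL compared with DIO, and 2 rose: Cyp4f16 (log2 fold change 2.18, SE 0.453, adjusted p = 0.0287) and Cyp4f18 (1.73, SE 0.433, adjusted p = 0.0433), which acts on leukotriene B4 in myeloid cells. GB-IL liver 4 was within the DIO range for both, at 1.99 and 0.664 CPM, and the macrophage markers were high in the other 3 GB-IL livers. Their part in these rises was not tested. Of 13 epoxygenases and epoxide hydrolases, which act on the same arachidonic acid, 11 were negative, against 46.9% of all genes. The median of the 13 was -1.01 and none was called. Ephx2, soluble epoxide hydrolase (-1.01, adjusted p = 0.0674), and Cyp2c37 (-1.12, adjusted p = 0.119) had the smallest p-values. Without GB-IL liver 4, 8 of the 13 were lower at the FDR, against 9.27% of all genes.

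Because Cyp4a12a is a male-biased gene, lists of sex-biased liver genes were read beside it. Of 17 male-biased genes tested all 17 were negative in GB-IL compared with DIO, against 46.9% of all genes. Their median log2 fold change was -2.22, and none was called. Ugt2b38 (-3.45, adjusted p = 0.0924) and Hsd3b5 (-4.08, adjusted p = 0.123) had the smallest p-values. In RYGB compared with DIO 9 were negative and 8 positive, with a median of -0.05. Liver by liver, the median over the 17 genes relative to the DIO mean was -4.10, -3.15, -1.07 and -0.98 log2 units in GB-IL livers 1 to 4. It was -1.43 and -1.34 in RYGB livers 1 and 5 and 0.67 to 0.79 in RYGB livers 2 to 4. Cyp4a12a too was lowest in RYGB livers 1 and 5 of that group. Its level in RYGB liver 2, 23.8 CPM, also lay below every DIO liver, unlike the median of the list. Without GB-IL liver 4, 6 of the 17 were lower at the FDR, against 9.27% of all genes.

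Of 15 female-biased genes tested 8 were positive and 7 negative in GB-IL compared with DIO. Sult1e1, oestrogen sulfotransferase, was the 1 that rose (log2 fold change 7.99, SE 1.59, adjusted p = 0.0278), and Prom1 had 1.80 (adjusted p = 0.0535). Of 12 genes of the growth hormone and STAT5 axis Socs3, the inhibitor of cytokine signalling, rose (2.63, SE 0.635, adjusted p = 0.0383). GB-IL liver 4 had 0.627 CPM of Sult1e1 and 4.79 CPM of Socs3, within or below the DIO ranges. Onecut1 had -2.77 (adjusted p = 0.0803). Ghr, the growth hormone receptor, was at 369.9 to 555 CPM in DIO and at 34.6, 48.7, 302 and 540.1 CPM in GB-IL livers 1 to 4 (log2 fold change -1.02, SE 0.613, adjusted p = 0.316). The calls of Cyp4f16, Cyp4f18, Sult1e1 and Socs3 depended on every library of the DIO group and on GB-IL livers 1 and 2, since 0 genes of the whole table were called with any 1 of these 7 left out. Cyp4f18 also lost its call without GB-IL liver 3 or any 1 of RYGB livers 1 to 4, and Socs3 without any 1 of RYGB livers 1 to 3.

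**Figure D5:**
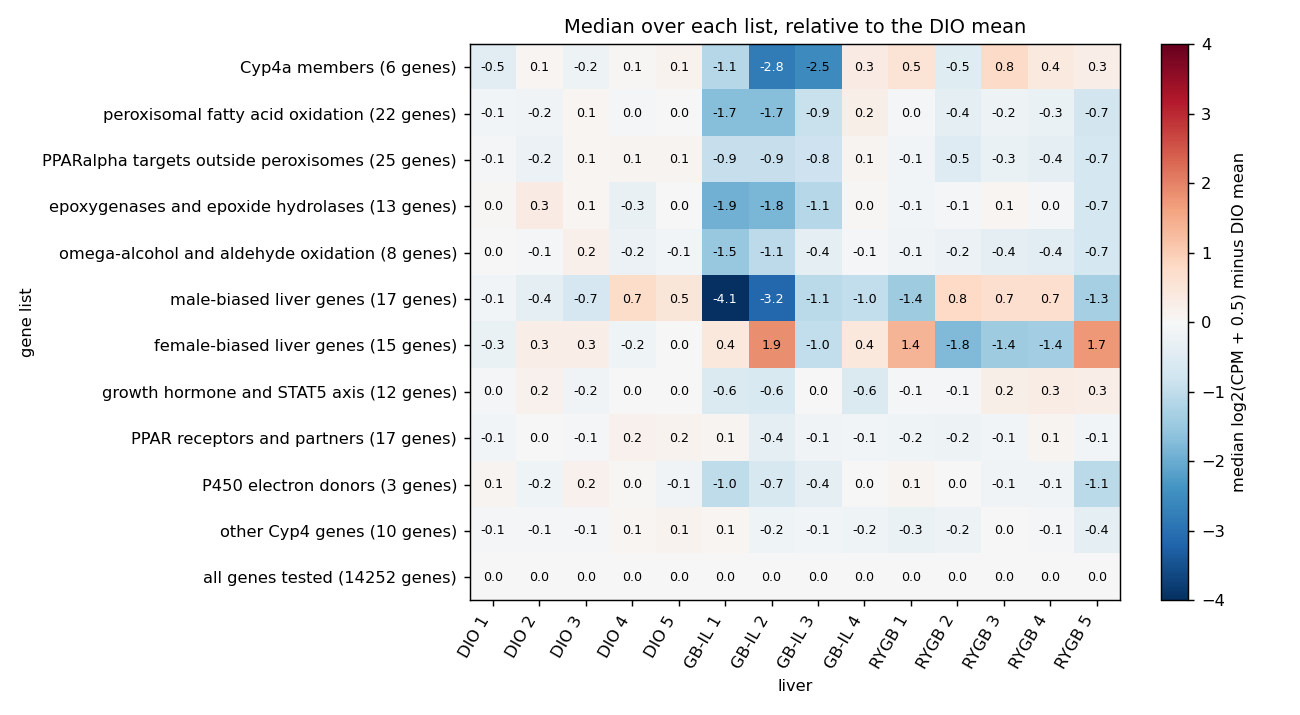
Median over the genes of each list in each liver, as log2(CPM + 0.5) minus the DIO mean of the same gene, blue for lower and red for higher, with the value in each cell. The members lay at -1.14, -2.81 and -2.55 in GB-IL livers 1 to 3 and at 0.33 in GB-IL liver 4, and all genes tested lay near 0 in every liver.

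For RYGB compared with DIO none of these lists held a called gene. Genes with the smallest p-values in each list were Cyp4f41-ps (-1.24) and Cyp4b1 (-0.62), Aldh2 (-0.51) and Adh5 (-0.27), Eci2 (-0.53) and Acot8 (-0.44), Angptl4 (-1.11) and Cpt2 (-0.56), Lpin1 (-1.61), Por (-0.98) and Cyb5r3 (-0.21), Ephx2 (-0.64) and Ephx1 (-0.93), Cyp2d40 (-0.97) and Cyp2d9 (-0.66), Cyp2c69 (4.56) and Hao2 (-4.97), and Onecut1 (-1.97) and Bcl6 (0.91), all as log2 fold changes with adjusted p between 0.331 and 0.836. Of the PPARα targets 22 of 25 and of the peroxisomal genes 19 of 22 were negative, against 48.5% of all genes. Their medians were -0.37 and -0.33, whereas Cyp4a10 and Cyp4a14 were at 0.06 and 0.25. Ppara had -0.20 (adjusted p = 0.933) and Ghr -0.19 (adjusted p = 0.942).

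For GB-IL compared with RYGB the lists held no called gene either. The median log2 fold change was -2.08 for the male-biased genes (17 of 17 negative) and -1.02 for the epoxygenases and epoxide hydrolases (12 of 13 negative). Of all genes 47.5% were negative. The smallest p-values belonged to Cyp4f18 (1.83) and Cyp4f16 (1.58), Aldh3b1 (1.22) and Adh4 (-1.10), Crot (-1.60) and Ehhadh (-0.96), Angptl4 (1.26) and Hadhb (-0.50), Rxrb (0.87), Por (1.83) and Cyb5b (-0.62), Cyp2c54 (-2.15) and Cyp2c37 (-1.15), Hsd3b5 (-5.79) and Susd4 (-2.23), Sult1e1 (6.83) and Cyp2c69 (-4.83), and Stat5b (-0.78) and Stat5a (-0.82), with adjusted p between 0.0776 and 0.379. Ppara had -0.76 (adjusted p = 0.396) and Ghr -0.82 (adjusted p = 0.413).

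The genes whose levels ran most like each member were different for the different members. Likeness was Pearson's r of log2 CPM over the 14 livers among 12687 genes whose mean level reached 1 CPM, and the r after removal of group means follows each value. For Cyp4a10 they were Acadl, the long-chain acyl-CoA dehydrogenase (0.89, 0.89), Mpc1, a subunit of the mitochondrial pyruvate carrier (0.88, 0.89), and Cyp2c37 (0.87, 0.82). For Cyp4a14 they were Ube2e2 (0.89, 0.87), Cyp2b9 (0.84, 0.86) and Acot3 (0.83, 0.84), the last of which is in the peroxisomal list and, with Cyp2b9, in the female-biased list. For Cyp4a12a all 3 were major urinary protein genes, which are made by male liver under growth hormone: Mup12 (0.98, 0.96), Mup9 (0.98, 0.95) and Mup16 (0.97, 0.94). Mup genes are near-identical copies of each other, so their counts share the limit described for the Cyp4a12 pair.

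For Cyp4a12b they were Nol11 (0.91, 0.86), Mup7 (0.91, 0.90) and Hsd3b5 (0.89, 0.77), the last 2 from the male-biased list. For Cyp4a32 they were Phlpp1 (0.97, 0.95), Ubr3 (0.96, 0.95) and Abat (0.96, 0.95). For Cyp4a31 they were Gpr4 (0.91, 0.88), 2700081O15Rik (0.89, 0.88) and Cux2 (0.88, 0.89), a transcription factor known as female-specific in mouse liver. Cux2 was at 0.209 to 1.03 CPM in the 5 DIO livers. It was at 25.2 and 19.4 CPM in GB-IL livers 1 and 2 and at 25.1 and 26.9 CPM in RYGB livers 1 and 5, and at 0.212 to 0.442 CPM in the other 5 operated livers. The same 4 operated livers held the 4 highest levels of Cyp4a31, 18.3 to 36.6 CPM, and of the operated livers GB-IL livers 1 to 3 and RYGB livers 1 and 5 held the 5 lowest of Cyp4a12a.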

How the data were processed

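Liver RNA of 5 DIO, 4 GB-IL and 5 RYGB mice was sequenced, 1 library per liver. The authors amplified the RNA, aligned its reads to mm10 by TopHat 2, took the count of each gene by HTSeq, and deposited these counts without normalization. Tool versions, annotation, strand setting and the treatment of multiply mapping reads were not given in the sources used here. Sample labels name 2 stranded TruSeq kits without assigning them to livers, so no kit or batch could be entered as a term, and kit and group cannot be told apart. The labels number the mice within each group and say no more of them.

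The analysis used edgeR 4.0.16 in R 4.3.3. Genes were kept by filterByExpr, scaled by TMM and tested by quasi-likelihood in 1 fit of 14 livers with the 3 groups as the only term. P-values were adjusted over 14252 genes by the Benjamini-Hochberg method at an FDR of 0.05, and every adjusted p in the text is of this kind unless another tool is named. CPM of genes are scaled by TMM, and sums over cell type markers are CPM of the total count. On simulated counts with 200 changed genes (log2 fold change of 2 in size) the test recovered 180 and made 10 false calls for the comparison of GB-IL with DIO. For RYGB with DIO it recovered 185 with 11 false calls, and for GB-IL with RYGB 184 with 5. The changed genes had a mean of over 50 counts, and every liver of the changed group got the same change. In the real GB-IL group liver 4 differed from the others, so these rates may not hold for the members. Sequences, positions and lengths are those of the GRCm38 (mm10) assembly in GENCODE M21, where 24701 of 25212 identifiers were found, and coding identity was computed by global alignment with Biopython 1.88. Alternatives were other scaling (upper quartile, RLE), other tests (DESeq2 1.42.0, voom with sample quality weights in limma 3.58.1, the exact test and robust fit of edgeR), other filters (none, or a mean of 50 counts), a fit of only the groups compared, a block for the replicate number, each liver left out, summed paralog rows, and a minimum log2 fold change of 1 in size beside the FDR.

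The members and gene lists were chosen with earlier results of these data known. Named are the members, the list genes past the FDR (up to 4 a list) or otherwise the 2 with the smallest p-value per list and comparison, Ppara, Por, Ghr, and the 3 genes most like each member. Ehhadh and the values of Cux2 by liver were added after their values had been seen. The gene Es31 and a few Cyp4 genes of the lists were not analysed here, and the results of some genes that the rule names are not reported here.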

Additional observations from a re-analysis of the deposited data

Results flagged for a closer look

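The 18 sets of livers (6 members in 3 groups) were each checked by Dixon's ratio at the 95% level. It compares the highest and the lowest liver with the nearest other liver. Its rate by chance of about 1 in 20 sets holds for independent sets with normal spread. These sets share the same 14 livers, and the ratio was taken on CPM without logs. That rate is therefore no yardstick here. A gap past the level was found in 4 of the 18. Cyp4a10 in RYGB liver 1 was 959 CPM, with the next RYGB liver at 310.3 CPM. In GB-IL liver 4 Cyp4a12a was 35.7 CPM, with the next GB-IL liver at 4.24 CPM, and Cyp4a12b was 2.99 CPM, with the next at 0.508 CPM. Cyp4a32 in DIO liver 2 was 32.3 CPM, with the next DIO liver at 20.3 CPM. The 2 gaps of GB-IL liver 4 are in the same library, which lay at 35.3 on the first principal component, where the DIO livers lay between 21.9 and 45.7.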

How the results depend on the processing

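Of 450 values of the 18 member differences under 25 alternatives 426 kept their direction and side of the threshold, 9 newly passed it and 15 reversed. No member passed the threshold in the main fit, so no call could be lost, and keeping the side meant staying not called. Cyp4a members called rose from 0 to 1 with voom in GB-IL against DIO (Cyp4a10, -2.54, adjusted p = 0.0340) and to 1 with DESeq2 and 1 with the exact test in GB-IL against RYGB (Cyp4a12b). With 1 liver left out the number of members called ranged from 0 to 3 in both GB-IL comparisons (3 without GB-IL liver 4), and was 0 in RYGB against DIO. The number of all genes called in GB-IL against DIO (465) ranged from 0 to 3572 with 1 liver left out, and was 1292 with DESeq2, 1127 with the exact test and 0 with the 2 groups only. In RYGB against DIO (0) it ranged from 0 to 5, and was 97 with DESeq2, 1690 with voom, 43 with the exact test and 33 with the 2 groups only. In GB-IL against RYGB (0) it ranged from 0 to 3120, and was 845 with DESeq2, 115 with voom, 678 with the exact test and 51 without the filter. The cause was not tested.

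Reversals in RYGB against DIO were Cyp4a10 and Cyp4a14 with voom (-0.62 and -1.05) and without RYGB liver 1 (-0.62 and -0.32), Cyp4a10 without DIO liver 1 (-0.07) or 2 (-0.0028), Cyp4a32 without RYGB liver 3 (-0.026) and Cyp4a12a with the pair summed (0.12). Cyp4a31 reversed in GB-IL against DIO with the trio summed (-0.81), and in GB-IL against RYGB without liver 3 of GB-IL (0.12) or liver 1 (0.02) or 5 (0.16) of RYGB. With 1 liver left out the range was -0.62 to 0.25 for Cyp4a10, -0.32 to 0.53 for Cyp4a14 and -0.026 to 0.47 for Cyp4a32 in RYGB against DIO, and -0.81 to 0.16 for Cyp4a31 in GB-IL against RYGB. With windows of 100 bases the shared sequence was 12.2% for Cyp4a10, 35.8% for Cyp4a12a, 36.2% for Cyp4a12b, 7.33% for Cyp4a31 and 18.2% for Cyp4a32. The mean RPKM moved by less than the SD with unscaled CPM or the longest transcript.

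Same-numbered livers correlated at -0.38 to 0.38 over 13 pairs, 2 of them over 0.1, so the numbers are not taken to pair livers. With the replicate number as a block the number of all genes called in GB-IL against DIO was 1, and Cyp4a10 (-0.16), Cyp4a14 (-0.16) and Cyp4a32 (-0.014) reversed in RYGB against DIO. Low counts limit Cyp4a12b and, in GB-IL, Cyp4a12a.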

Other observations

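Promoter sequence from RefSeq on GRCm38 was matched for 1 of the 6 members, Cyp4a32. Its 250 bases before the start held 1 match to TATAAA, on the reverse strand, and 0 to AGGTCA, to the direct repeat DR1 (AGGTCA repeated with a spacer of 1 base, so that it overlaps the single motif) and to TTCNNNGAA, all searched on both strands. Of 32851 promoters of that length 12.4% held TATAAA, 14.02% AGGTCA, 0.0335% the direct repeat and 7.02% TTCNNNGAA. A match is a description of letters in this window only.

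Marker lists of further cell types were summed in each liver. Endothelial markers (5 measured) were 139 to 219 CPM in 13 livers and 477 CPM in RYGB liver 5. Stellate markers (7 measured) were 52.6 to 341 CPM in GB-IL and 43.5 to 82.0 CPM in DIO. Adipocyte and kidney markers (4 each) reached at most 16.0 and 3.57 CPM, kidney being another organ that expresses Cyp4a genes. The 4 intestine markers summed to 5.20 to 27.1 CPM in GB-IL livers 1 to 3 and to 209 CPM in GB-IL liver 4, against 70.6 to 186 CPM in DIO. Only 1 of the 4 passed the filter on low counts, so their sum is no firm measure of intestinal tissue. Cyp4a12a too was lower in GB-IL livers 1 to 3 than in liver 4 and in every DIO liver, and the part of these markers in that was not tested. The 5 erythroid markers summed to 117 to 2428 CPM over all livers.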
